A study of Bos indicus x Bos taurus with 17 samples.

Results

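The sarcomeric myosin heavy chains are the motor proteins of striated muscle, and their genes were followed here in skeletal muscle and liver of bovine fetuses. The members were the rows of the gene count tables named MYH1, MYH2, MYH3, MYH4, MYH6, MYH7, MYH8 or MYH13. Of these 8 symbols, 7 matched a row among the 21048 genes listed, and MYH13, the extraocular form, matched none and is not analysed here. Each myosin molecule carries a pair of heavy chains, whose heads split ATP and pull on actin and whose tails pack into the thick filament. The isoform sets much of the speed at which a fibre shortens. In developing mammalian limb and trunk muscle the embryonic chain (MYH3) and the perinatal chain (MYH8) are made before birth, together with the slow chain (MYH7), and the fast adult chains of types 2A (MYH2), 2X (MYH1) and 2B (MYH4) take over later. MYH6 encodes the alpha chain of the heart.

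The study asked how assisted reproduction, and the overgrowth syndrome that can follow it, relate to fragments of tRNA in fetuses at about day 105 of gestation. It also examined overgrown fetuses conceived by assisted reproduction (ART-LOS), which are not among the labelled samples. All fetuses were F1 crosses of Bos indicus (Nelore) and Bos taurus (Holstein). Control-AI fetuses were conceived by artificial insemination (2 fetuses, Control-AI 2 and 4), and ART-Normal fetuses were produced in vitro (4 fetuses, ART-Normal 1 to 4). The study's methods place ART-Normal 1 to 3 at weights close to those of controls, whereas the weight of ART-Normal 4 is not given in the sources used here, and the labels call each of these fetuses healthy. Muscle and liver came from the same 6 fetuses. Which muscle was taken is not given in the sources used here, and each library is a whole-tissue sample, so fewer cells of a type and less RNA per cell cannot be told apart.

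Libraries held 12433300 to 23578362 counts in muscle and 18454088 to 43339598 in liver. Levels are given as CPM, the counts scaled to library size, after scaling by the trimmed mean of M values (TMM) within a tissue. The labelled tissues matched their markers: the 7 skeletal muscle markers summed to 12699 to 17403 CPM in muscle and 8.04 to 39.0 CPM in liver. Control-AI 2 stood apart from the other fetuses in both tissues. Its liver had the highest sum of the 7 muscle markers, 39.0 CPM against 8.04 to 9.21 CPM in the other livers. Its muscle had the highest sum of the 8 hepatocyte markers, 389 CPM against 26.7 to 66.6 CPM, and its liver had 327314 CPM of them against 28295 to 54629 CPM. The part of these differences in the results was not tested, and values that moved by over 1.5 times without Control-AI 2 are given with and without it.

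The 7 genes lie in a pair of clusters on the build ARS-UCD1.2. On chromosome 19, on the minus strand, MYH3 (29601526 to 29622481) comes first in the direction of transcription. It is followed by MYH2 (29510066 to 29536488), MYH1 (29483025 to 29507379), MYH4 (29452897 to 29475756) and MYH8 (29403330 to 29433354). The gap between MYH3 and MYH2 is 65037 bp, and the other gaps in this cluster are 2686, 7268 and 19542 bp. On chromosome 10, on the plus strand, MYH7 (21488719 to 21510520) precedes MYH6 (21515113 to 21541925) by 4592 bp. No member overlaps a listed gene on the opposite strand (0 of 7). Heavy chain genes of a cluster are close copies of one another, and how reads that fit several copies were handled is not given in the sources used here, so counts of the low members beside abundant ones are uncertain.

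**Figure D1:**
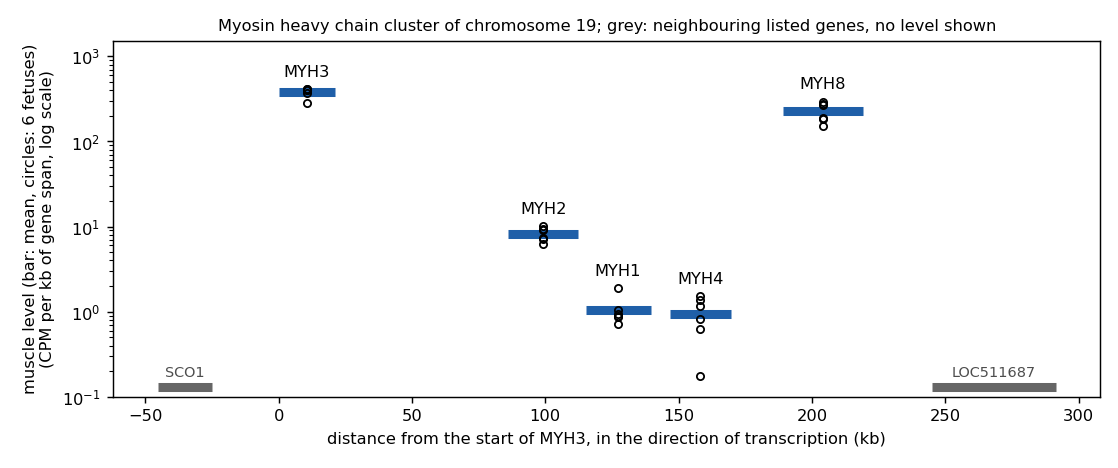
Muscle level of the 5 chromosome 19 genes, in CPM per kb of gene span on a log axis, against distance from the start of MYH3 in kb along the direction of transcription. Blue bars span each gene at its mean over 6 fetuses, circles are the 6 fetuses, and grey bars mark neighbouring listed genes with no level shown. Of the 5 genes, the outer MYH3 and MYH8 lie far above the 3 adult fast genes between them.

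Levels of different genes were compared per kb of listed gene span, introns included. The mean over the 6 muscle libraries was 380 CPM per kb for MYH3, 228 for MYH8, 67.2 for MYH7, 8.20 for MYH2, 1.05 for MYH1, 0.949 for MYH4 and 0.761 for MYH6. Over the 6 fetuses the ranges of MYH8 and MYH7, of MYH7 and MYH2, and of MYH2 and MYH1 did not overlap. The ranges of MYH3 (280 to 413 CPM per kb) and MYH8 (153 to 294 CPM per kb) overlapped across fetuses, although per kb MYH3 was the higher gene of the pair within each of the 6. By counts alone MYH8 was 1.03 times MYH3 in ART-Normal 4 and below MYH3 in the other fetuses. The order of the pair thus depends on the division by span. MYH1 (0.711 to 1.88 CPM per kb), MYH4 (0.174 to 1.51) and MYH6 (0.489 to 1.58) overlapped and have no order. Among the 5 members on chromosome 19, the outer genes were thus the most abundant, and the 3 adult fast genes between them the least abundant. The next listed gene beyond MYH8, LOC511687 at a gap of 25854 bp, is not a member by symbol. Its muscle level was 60.5 CPM in Control-AI 2 and 0.260 to 1.82 CPM in the other fetuses. The 7 members took 1.2% to 1.9% of all muscle counts.

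**Figure D2:**
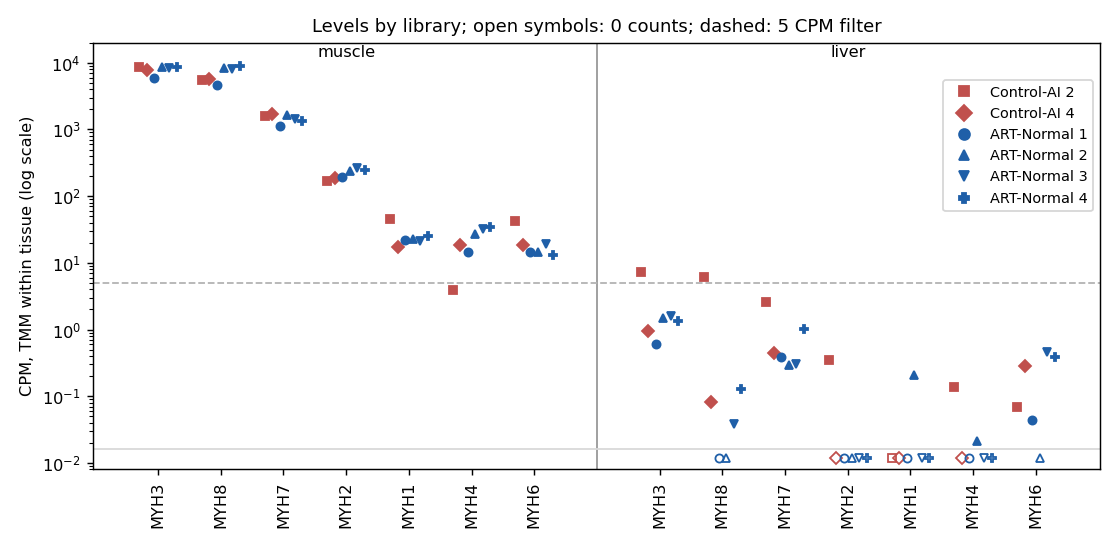
CPM after TMM scaling within each tissue (log axis) of the 7 genes in each muscle (left) and liver (right) library. Red symbols are the Control-AI fetuses, blue symbols the ART-Normal fetuses, open symbols at the base mark 0 counts, and the dashed line is the 5 CPM filter; every muscle value except MYH4 in Control-AI 2 (3.97 CPM) lies above the line, and every liver value except MYH3 and MYH8 in Control-AI 2 lies below it.

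MYH3, the embryonic chain, reached 8499 CPM for Control-AI 2 and 7752 for Control-AI 4. For ART-Normal 1 to 4 it was at 5871, 8658, 8334 and 8611 CPM. ART-Normal 1 was the lowest of the 6, the other 5 lay close together, and the groups overlapped. MYH3 was tested, as were all genes with at least 5 CPM in every library of a group, with edgeR's quasi-likelihood test and Benjamini-Hochberg adjustment over 11695 muscle genes. All log2 changes between the groups are given as ART-Normal minus Control-AI, with their standard error (SE). That of MYH3 was -0.05 (SE 0.19, adjusted p = 0.966 by edgeR). The sign is not settled, since the value was 0.01 without Control-AI 2 and 0.07 without ART-Normal 1.

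MYH8, the perinatal chain, stood at 5495 CPM (Control-AI 2) and 5725 CPM (Control-AI 4). The levels of ART-Normal 1 to 4 were 4596, 8342, 8101 and 8833 CPM. ART-Normal 1 lay below both controls and the other 3 ART-Normal fetuses lay above both. The log2 change was 0.41 (SE 0.25, adjusted p = 0.663 by edgeR) and did not pass the threshold of 0.05.

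MYH7, the slow chain that heart ventricle shares with slow fibres, was measured at 1570 and 1683 CPM for the controls 2 and 4. For ART-Normal 1 to 4 the levels were 1134, 1651, 1416 and 1336 CPM. The groups overlapped through ART-Normal 2, and ART-Normal 1 was again the lowest. A log2 change of -0.23 (SE 0.17, adjusted p = 0.737 by edgeR) did not pass the threshold. ART-Normal 1 was thus the lowest library for MYH3, MYH8 and MYH7 alike.

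Among the adult fast chains MYH2, the type 2A chain, was the most abundant per kb. Control-AI 2 and 4 had 166 and 189 CPM of it, and ART-Normal 1 to 4 had 192, 240, 266 and 248 CPM. Each ART-Normal fetus lay above both controls, although ART-Normal 1 exceeded Control-AI 4 by little. The log2 change was 0.41 (SE 0.16, adjusted p = 0.465 by edgeR).

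MYH1, the type 2X chain, was at 45.9 CPM for Control-AI 2 but 17.3 CPM for Control-AI 4. ART-Normal 1 to 4 had 21.6, 22.7, 21.2 and 25.3 CPM, between the controls. The log2 change of -0.46 (SE 0.30, adjusted p = 0.691 by edgeR) turned to 0.37 once Control-AI 2 was left out, and that library thus set its sign.

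MYH4, the type 2B chain, showed the opposite split of the controls, at 3.97 CPM (50 counts) for Control-AI 2 and 18.6 CPM (438 counts) for Control-AI 4. ART-Normal 1 to 4 had 14.4, 27.0, 31.7 and 34.6 CPM. ART-Normal 1 lay between the controls and the other 3 lay above them. The gene passed the filter only through the ART-Normal group. Its log2 change was 1.21 (SE 0.50, adjusted p = 0.497 by edgeR), and 0.51 without Control-AI 2. The count of MYH4 was 0.0865 times that of MYH1 for Control-AI 2, 1.07 times for Control-AI 4 and between 0.665 and 1.5 times for ART-Normal.

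MYH6, the alpha-cardiac chain, was at 42.2 and 18.7 CPM for Control-AI 2 and 4, against 14.4, 14.6, 19.3 and 13.1 CPM for ART-Normal 1 to 4. Control-AI 2 was again far above the rest, and ART-Normal 3 lay above Control-AI 4. The log2 change was -0.98 (SE 0.28, adjusted p = 0.342 by edgeR), and -0.30 without Control-AI 2. The MYH6 count was 2.69% of that of its neighbour MYH7 in Control-AI 2, 1.11% for Control-AI 4 and between 0.886% and 1.36% for ART-Normal. Markers of heart muscle differed among themselves in these muscle samples. The natriuretic peptide gene NPPB had 0 counts in all 6, NPPA and the cardiac regulator NKX2-5 had at most 0.0456 and 0.0912 CPM, and cardiac troponin I (TNNI3) had 0.632 to 2.08 CPM. Of the 8 cardiac markers, 3 had at least 5 CPM in all 6 libraries, led by the atrial light chain MYL7 at 156 to 301 CPM. The sum of all 8 ranged over 185 to 328 CPM for ART-Normal, with Control-AI 2 and 4 at 207 and 183 CPM.

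In all, 0 of the 7 members passed the adjusted threshold between ART-Normal and Control-AI in muscle, where 0.00855% of the tested genes did (1 of 11695). At an unadjusted p under 0.05 there were 3 (MYH2 and MYH4 higher and MYH6 lower in ART-Normal), beside 9.19% of all tested genes. MYH4 entered this count only because it passed the filter in ART-Normal, and the other 6 passed it in both groups. The groups did not overlap for 1 of the 7, MYH2, beside 16.0% of all tested genes. The likelihood ratio test and the Wald test of DESeq2 called 0 members too, with 3 and 2 at an unadjusted p under 0.05. Of all 11695 tested genes these 2 tests called 120 and 106, with 1107 and 1140 at an unadjusted p under 0.05. Without Control-AI 2, the log2 changes of MYH1, MYH4 and MYH6 were 0.37, 0.51 and -0.30. Without Control-AI 4, they were -1.0, 2.77 and -1.44. These fits assume that the lone control varies as the ART-Normal fetuses do. With 2 controls, the 2 choices of control thus gave different answers for those 3 low members.

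Next the isoforms were set against each other within each fetus, as shares of the summed counts of the 7 members. Such a share does not depend on the scaling between libraries, and counting error is at most 0.219 percentage points either way (95% Wilson interval). The embryonic share (MYH3) was 53.7% in Control-AI 2 and 50.3% in Control-AI 4. In ART-Normal 1 to 4 it was 49.6%, 45.7%, 45.8% and 45.1%. ART-Normal 1 lay just below Control-AI 4, and the other 3 lay further below. Divided by gene span, the share was 60.5% and 57.2% for the controls and 52.8% to 56.6% in ART-Normal.

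The perinatal share (MYH8) was 34.7% and 37.2% in Control-AI 2 and 4. It was 38.8%, 44.0%, 44.5% and 46.2% in ART-Normal 1 to 4, each above both controls. Divided by gene span it was 27.3% and 29.5% against 31.0% to 37.8%. In terms of counts MYH8 was 0.647 and 0.739 times MYH3 in Control-AI 2 and 4, and 0.783, 0.963, 0.972 and 1.03 times MYH3 in ART-Normal 1 to 4.

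The slow share (MYH7) was 9.92% and 10.9% in Control-AI 2 and 4 and 9.57%, 8.71%, 7.79% and 7.0% in ART-Normal 1 to 4. The fast share (MYH1, MYH2 and MYH4 together) was 1.37% and 1.46% for the controls and 1.93%, 1.53%, 1.75% and 1.61% in ART-Normal. The alpha-cardiac share (MYH6) was 0.267% and 0.121% for the controls and 0.0687% to 0.121% in ART-Normal, where the highest ART-Normal value came within counting error of Control-AI 4. Divided by gene span the slow share was 10.7% and 11.9% for the controls and 7.87% to 10.5% in ART-Normal, and the fast share was 1.25% and 1.34% against 1.44% to 1.78%.

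**Figure D3:**
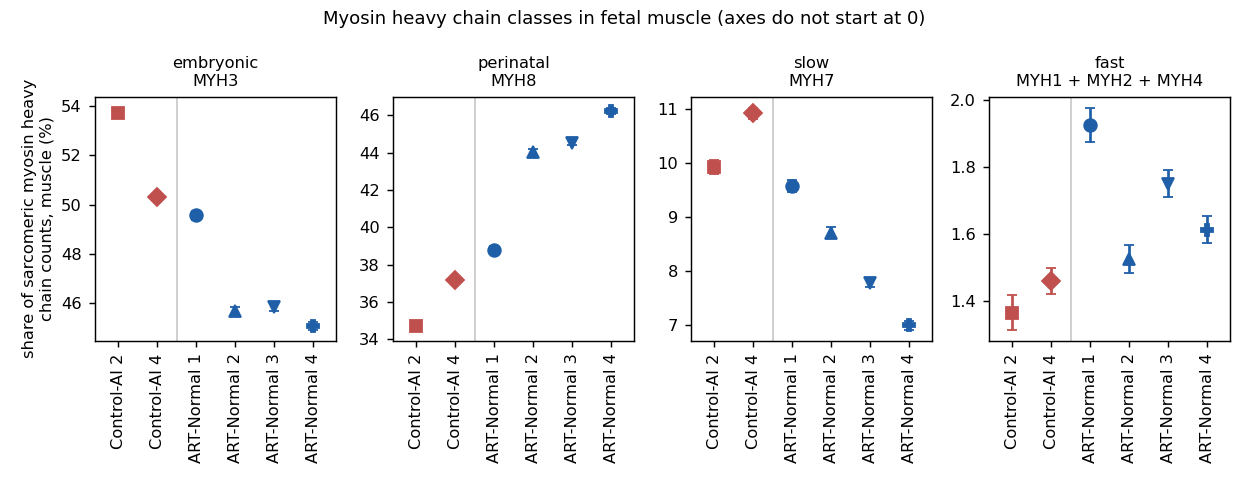
Share of the summed counts of the 7 genes, in percent, held by the embryonic, perinatal, slow and fast chains in the muscle of each fetus; bars are 95% Wilson intervals of counting error, and the axes do not start at 0. Red symbols are the 2 Control-AI and blue the 4 ART-Normal fetuses; in each panel all ART-Normal points lie on one side of both controls, with ART-Normal 1 nearest to them in all but the fast panel.

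The mean embryonic share was 46.5% ± 2.05 (SD, n = 4) in ART-Normal and 52.0% in the 2 controls, a difference of -5.48 percentage points. The differences were 7.45 points for the perinatal, -2.16 for the slow, 0.290 for the fast and -0.101 for the alpha-cardiac share. On the count scale the groups did not overlap for any of the 5 shares, and each difference had p = 0.133 in a two-sided exact permutation test (0.133 also after Benjamini-Hochberg adjustment over the 5 shares). This is the smallest p that the 15 splits of 6 fetuses into 4 and 2 allow, so the design cannot reach 0.05. Divided by gene span, the alpha-cardiac share overlapped (exact permutation p = 0.267), and the other 4 were again at that smallest p (0.167 after adjustment, exact permutation test). The 5 shares sum to 100%, so they are not independent of each other. Without Control-AI 2 the differences were -3.79 points for the embryonic, 6.23 for the perinatal, -2.66 for the slow, 0.243 for the fast and -0.0281 for the alpha-cardiac share.

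The muscle samples also differed in their connective tissue markers. The sum of the 6 markers lay between 21845 and 25433 CPM for ART-Normal, below the 27271 and 28002 CPM of Control-AI 2 and 4. Of these markers 4 (COL1A1, COL3A1, DCN and LUM) were lower in every ART-Normal fetus than in both controls (66.7% of the list, beside 16.0% of all tested genes), 0 were called, and none was at 0. The 7 skeletal muscle markers overlapped between the groups, at 12699 to 17403 CPM in ART-Normal against 15737 and 14445 CPM in the controls. The part of this in the myosin shares was not tested.

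Liver served as the contrast tissue. The 7 members together had 240 counts in the liver of Control-AI 2, 43 in that of Control-AI 4 and 24 to 95 in the ART-Normal livers. No member (0 of 7) reached the filter of 5 CPM in every library of a group, so none was compared between ART-Normal and Control-AI in liver. In the fit over both tissues the 7 members entered only through muscle, where they are high, so a higher level there was fixed by the filter. All 7 passed edgeR's quasi-likelihood test, beside 80.0% of the 12923 tested genes that passed in either direction.

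MYH3 had the most liver counts, 294 over the 6 livers, at 7.19 CPM in Control-AI 2 and 0.612 to 1.61 CPM in the other 5. Its log2 difference of muscle over liver, in a direction fixed by the filter, was 11.66 (SE 0.63), and 12.67 without Control-AI 2. MYH7 had 112 liver counts and a log2 difference of 10.65 (SE 0.49), and 11.53 without Control-AI 2. Its liver level was 2.63 CPM in Control-AI 2 and 1.03 CPM in ART-Normal 4, against 0.294 to 0.448 CPM in the others. MYH8 had 97 liver counts, of which 90 were in Control-AI 2 (6.22 CPM), 0 to 4 in each ART-Normal liver and 2 in Control-AI 4. The log2 difference of MYH8 was 13.98 (SE 0.94) and 16.58 without Control-AI 2.

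The low members were rarer still in liver. MYH1 had 10 counts, all in ART-Normal 2, MYH2 had 5, all in Control-AI 2, and MYH4 had 2 in Control-AI 2 and 1 in ART-Normal 2. A count of 0 allows a level of up to 0.0692 to 0.163 CPM of total counts, depending on the library (3 counts, counting error only). MYH6 differed from these in its pattern. It had 33 liver counts, 12 each in ART-Normal 3 and 4, 7 in Control-AI 4, 1 each in ART-Normal 1 and Control-AI 2 and 0 in ART-Normal 2. Its log2 difference of muscle over liver was 6.55 (SE 0.58), again in a direction fixed by the filter.

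Set against the muscle of the same fetus, liver had 0.0934% of the MYH3 level in Control-AI 2 and 0.0117% to 0.0214% in the other 5 fetuses. For MYH8 the values were 0.125% in Control-AI 2 and at most 0.0016% elsewhere, and for MYH7 0.185% and 0.0200% to 0.0851%. Of 8 genes of other muscle proteins set beside them, at 0.0971% to 0.440% in Control-AI 2, 7 were highest in that fetus. Desmin (DES) was not, at 0.440% there and 0.305% to 0.536% elsewhere. The light chain gene MYL1 was at 0.105% there and at 0 counts in the other 5 livers, creatine kinase CKM at 0.0980% and at most 0.0110%, and skeletal actin ACTA1 at 0.124% and at most 0.0049%. In the other direction, the muscle of Control-AI 2 had 0.109% of its liver's albumin (ALB) level and 0.0995% of its fetuin (AHSG) level, where the other fetuses had 0.0125% to 0.0923% and 0.0274% to 0.303%. The part of these transcripts in the liver values of the members was not tested. MYH6 alone did not have its highest liver share in Control-AI 2 among the 4 members with the most liver counts, at 0.181% there and 3.25% in ART-Normal 4.

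**Figure D4:**
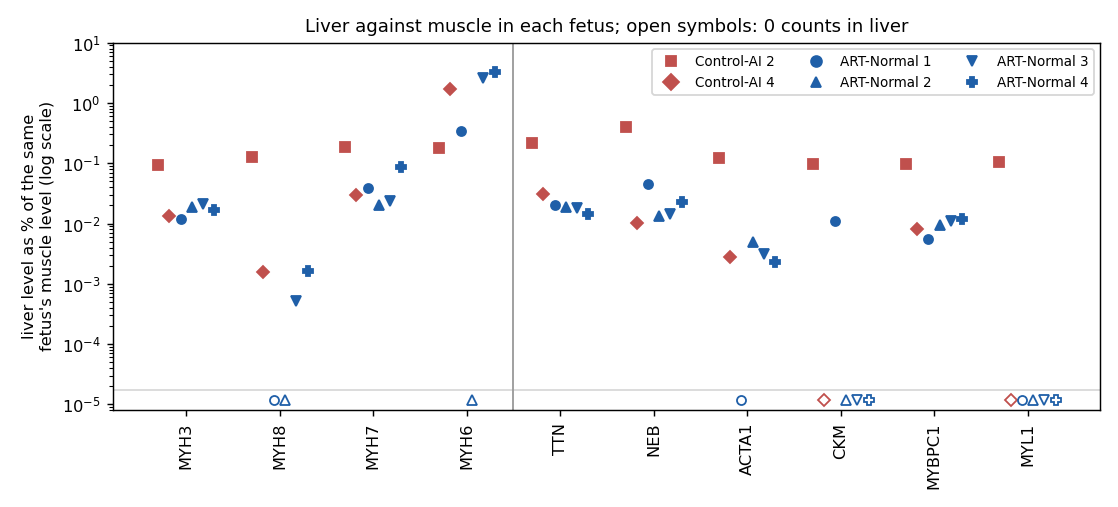
Liver level as a percentage of the muscle level of the same fetus (log axis) for 4 heavy chain genes (left) and 6 other muscle genes (right); open symbols at the base mark 0 liver counts. Red symbols are Control-AI and blue ART-Normal fetuses. Control-AI 2 is the highest fetus for every gene shown except MYH6, at 0.0934% to 0.401% against at most 0.0851% in the other fetuses. Not drawn are DES, at 0.440% in Control-AI 2 and up to 0.536% elsewhere, and TNNT3, at 0.380% and 0.0935% to 0.187%. MYH1, MYH2 and MYH4 are not drawn either.

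Genes that work with the heavy chains were then examined in muscle as lists. Over all 11695 tested genes the median log2 change was 0.00. Thick filament partners, which anchor or cross-link myosin, had 8 of 9 genes tested, 0 called, 0 at an unadjusted p under 0.05, and a median log2 change of 0.11 (0.19 without Control-AI 2). The groups did not overlap for 2 of the 8 (25.0%, beside 16.0% of all tested genes), in opposite directions. The giant scaffold titin (TTN) had 5761 and 5882 CPM in Control-AI 2 and 4 and 5991 to 8167 CPM in ART-Normal, with no overlap and a log2 change of 0.26 (adjusted p = 0.704 by edgeR). The M-band gene MYOM3 had 745 and 633 CPM for the controls and 599 to 1091 CPM in ART-Normal, a log2 change of 0.39 (adjusted p = 0.652 by edgeR). Slow myosin-binding protein C (MYBPC1) had 3099 to 4320 CPM over the 6 fetuses, and MYOM1 838 to 1238 CPM. MYOM2, the second gene without overlap, was at 744 and 750 CPM for Control-AI 2 and 4 and 497 to 735 CPM for ART-Normal, lower in ART-Normal. MYBPC2, the fast form of myosin-binding protein C, had 1.96 to 2.94 CPM and stayed below the filter.

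The slow programme had 10 of 10 genes tested, 0 called and a median log2 change of -0.03 (-0.06 without Control-AI 2). Its genes with the most CPM, a scale that does not allow for gene length, were the slow light chain MYL2 (1218 to 1639 CPM over the 6 fetuses), the calcium store protein CASQ2 (724 to 1249 CPM), TPM3 (527 to 968 CPM), TNNC1 (519 to 642 CPM) and ATP2A2 (506 to 626 CPM). Only the Z-disc gene MYOZ2, 640 and 581 CPM in Control-AI 2 and 4 and 337 to 545 CPM in ART-Normal, had an unadjusted p under 0.05, with a log2 change of -0.54 (adjusted p = 0.419 by edgeR). MYOZ2 and the slow light chain MYL3 (149 and 147 CPM against 98.9 to 142 CPM) were the 2 of 10 that did not overlap (20.0%, beside 16.0% of all tested genes), both lower in ART-Normal, and the 1 gene with a low unadjusted p was 1 of 10, beside 9.19% of all tested genes.

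The fast programme had 10 of 11 genes tested, 0 called and 0 at an unadjusted p under 0.05. Its median log2 change was -0.07 (0.08 without Control-AI 2). The groups did not overlap for 1 of the 10, beside 16.0% of all tested genes. That gene was tropomyosin TPM1, at 835 and 849 CPM for Control-AI 2 and 4 and 666 to 784 CPM for ART-Normal. Fast troponin T (TNNT3) had 1362 to 2358 CPM, the regulatory light chain MYLPF 1312 to 2192 CPM, troponin C (TNNC2) 1161 to 1706 CPM, MYL1 855 to 1380 CPM and troponin I (TNNI2) 595 to 1097 CPM over the 6 fetuses. Parvalbumin (PVALB), a calcium buffer of fast adult fibres, had 0.295 to 0.873 CPM. The other fast genes of the list were lower, with ATP2A1 at 201 to 410 CPM, CASQ1 at 87.4 to 171 CPM, MYOZ1 at 62.8 to 123 CPM and ACTN3 at 13.6 to 21.5 CPM.

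The developmental programme had 7 of 8 genes listed and tested, 0 called and a median of -0.03 (0.02 without Control-AI 2). Cardiac actin (ACTC1), the main actin of early skeletal muscle, had 4071 and 3072 CPM for the controls and 2379 to 3148 CPM in ART-Normal, a log2 change of -0.41 (adjusted p = 0.541 by edgeR) that was -0.21 without Control-AI 2. The embryonic light chain MYL4 had 635 to 982 CPM, the fetal acetylcholine receptor subunit CHRNG 239 to 569 CPM, CHRNA1 339 to 501 CPM and MYL6B 245 to 452 CPM. ACTA1, the adult skeletal actin and a muscle marker, had 2284 and 1643 CPM for the controls and 1040 to 1569 CPM in ART-Normal, without overlap, and a log2 change of -0.53 (adjusted p = 0.456 by edgeR) that was -0.29 without Control-AI 2. Such a lack of overlap was seen for 16.0% of all tested genes.

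Myosin folding and turnover had 7 of 7 genes tested, 0 called and a median of 0.16. The myosin chaperone UNC45B had 194 to 286 CPM, its partner HSP90AA1 601 to 1085 CPM, HSPA8 1203 to 1501 CPM and the methyltransferase SMYD1 180 to 295 CPM over the 6 fetuses. The ubiquitin ligases that mark muscle proteins for breakdown were low. FBXO32 had 7.14 and 9.50 CPM in Control-AI 2 and 4 and 9.47 to 13.1 CPM in ART-Normal (log2 change 0.50, adjusted p = 0.528 by edgeR, and 0.30 without Control-AI 2). TRIM63, which targets myosin itself, had 5.80 and 6.07 CPM against 7.07 to 9.87 CPM, with no overlap (log2 change 0.48, adjusted p = 0.555 by edgeR). It was the 1 gene of these 7 without overlap (14.3%, beside 16.0% of all tested genes).

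Fibre type regulators, the transcription factors and cofactors that set slow and fast gene programmes, had 18 of 18 genes tested, 0 called and a median of 0.19, which was 0.19 without Control-AI 2 as well. At an unadjusted p under 0.05 there were 5 (27.8%), each higher in ART-Normal, beside 9.19% of all tested genes. The groups did not overlap for 6 (33.3%), beside 16.0%. PPARGC1A, a coactivator of the slow oxidative programme, had 25.8 and 35.2 CPM in Control-AI 2 and 4 and 39.7 to 56.5 CPM in ART-Normal (log2 change 0.67, adjusted p = 0.343 by edgeR). SOX6, a repressor of slow genes including MYH7, had 102 and 161 CPM against 168 to 225 CPM (log2 change 0.56, adjusted p = 0.413 by edgeR, and 0.26 without Control-AI 2). EYA1, a transcriptional cofactor of the fast programme, had 34.8 and 40.8 CPM against 47.2 to 53.6 CPM (log2 change 0.45, adjusted p = 0.385 by edgeR). Its relative EYA4 (log2 change 0.38, and 0.24 without Control-AI 2) and the fast glycolytic regulator TBX15 (0.39, and 0.20 without Control-AI 2) were the other 2 of the 5. TEAD1, which binds promoters of contractile genes, completed the 6 without overlap, at 246 and 262 CPM against 287 to 373 CPM. The regulator with the most CPM, MEF2C, had 913 to 1126 CPM, and MYOG, which had 137 to 181 CPM, overlapped between the groups. Without Control-AI 2 the log2 change was 0.45 for PPARGC1A, 0.33 for EYA1 and 0.26 for TEAD1, each smaller than with both controls.

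**Figure D5:**
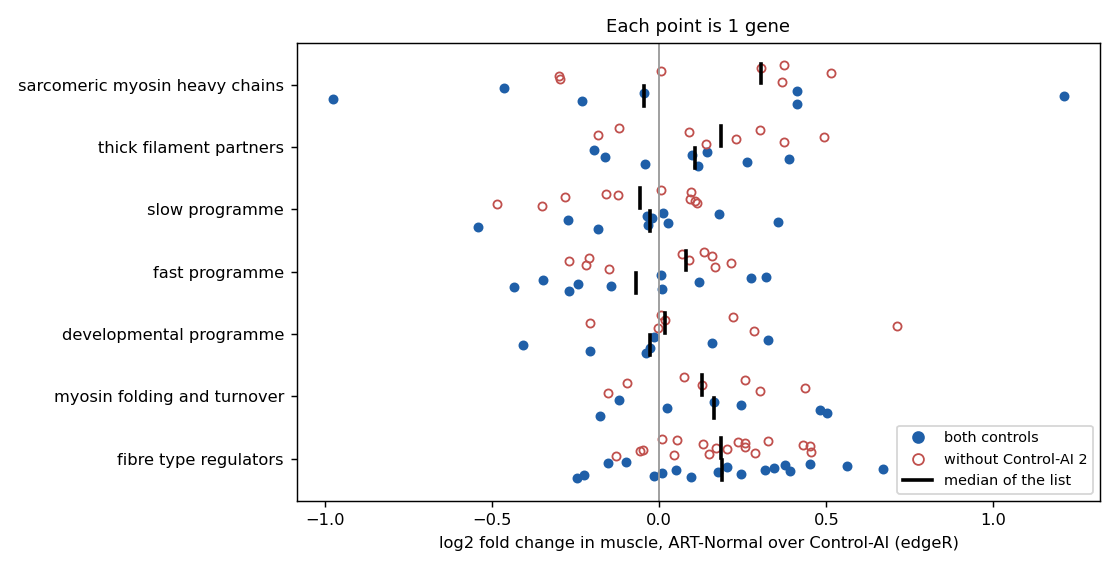
Log2 change between the groups in muscle, ART-Normal minus Control-AI (edgeR), for each tested gene of 7 lists; filled blue points use both controls, open red points leave out Control-AI 2, and black ticks are list medians. Of the 7 lists drawn, which leave out the other myosin heavy chains, the widest spread is among the sarcomeric members (-0.98 to 1.21), which narrows to between -0.30 and 0.51 without Control-AI 2, and the fibre type regulators have medians of 0.19 in both fits.

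Other myosin heavy chains, most of them non-muscle or smooth muscle forms, had 6 of 7 genes listed and tested, with 0 called and a median of 0.02 (-0.01 without Control-AI 2). At an unadjusted p under 0.05 by edgeR there were 2 (33.3%, beside 9.19% of all tested genes), MYH14 higher and MYH11 lower in ART-Normal. MYH7B, a relative of the slow chain, had 410 to 729 CPM in muscle, and the non-muscle chains MYH9 and MYH10 had 322 to 441 and 366 to 398 CPM. All 6 passed the fit over both tissues, beside 80.0% of the 12923 tested genes that passed in either direction. Of the 6, 2 were higher in muscle than in liver, MYH7B (log2 difference 7.29) and MYH15 (6.40). Both entered only through muscle, so their direction was fixed by the filter. The other 4 were higher in liver (edgeR's quasi-likelihood test), at log2 differences of -0.38 for MYH9, -0.37 for MYH10, -0.93 for MYH11 and -2.76 for MYH14. The smooth muscle chain MYH11 had 49.5 CPM in Control-AI 2 and 6.82 to 10.04 CPM in the other 5 (log2 change -1.84, and -0.18 without Control-AI 2). MYH7B, MYH10, MYH11 and MYH15 each have a listed gene on the opposite strand, and how strand was handled in counting is not given in the sources used here. MYH14, a non-muscle chain with no such overlap, had 10.7 and 10.5 CPM for the controls and 10.4, 15.3, 29.4 and 23.2 CPM in ART-Normal 1 to 4 (log2 change 0.89, adjusted p = 0.489 by edgeR).

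Last, the profile of each member over the 6 muscle libraries was compared with those of 11688 other tested genes, by the root mean square difference of centred log2 CPM. MYH4 was left out of this step because it had under 5 CPM in Control-AI 2. The gene nearest to MYH3 was THOC6, at 0.0470, followed by the Z-disc actinin ACTN2 at 0.0494, where a flat profile would differ by 0.198. Nearest to MYH8 were CTTNBP2 (0.0992) and MYOM3 (0.107), against 0.356 for a flat profile. MYH7 was nearest to ARRDC3 (0.0481), PRNP (0.0607) and the muscle caveolar gene CAVIN4 (0.0631), against 0.198. MYH2 was nearest to ZNF316 (0.0522), against 0.244. The closest profiles to MYH1 and MYH6, the members highest in Control-AI 2, were IL27RA (0.0575, against 0.439) and PDE3B (0.101, against 0.564). Among the members themselves MYH3 and MYH7 were nearest to each other (0.152), as were MYH8 and MYH2 (0.190) and MYH1 and MYH6 (0.365). With 6 libraries and 11688 genes, near profiles occur among genes of many kinds, so these values are descriptions.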

How the data were processed

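Members and gene lists were chosen with earlier results of these data known. For muscle and liver the authors deposited 1 table each of raw, unscaled counts by gene, on ARS-UCD1.2. The submitters' processing notes name FastQC 0.11.7, HISAT2 2.1.0, Cufflinks, SAMtools, featureCounts and edgeR 3.24.3. Libraries were poly(A)-selected, strand-specific and paired-end. The strand setting of the counting is not given in the sources used here. Each of the 21048 listed lengths equals the whole gene span. A further 14 count columns, 7 per table, matched no sample and were not used. Tables of the authors' comparisons (fold changes, p-values) were not used, and kidney is not analysed here. No protein table was at hand, so shares use counts alone, with division by gene span as an alternative.

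Counts were tested with edgeR 4.0.16 (limma 3.58.1, R 4.3.3): TMM, quasi-likelihood F test, 5 CPM or more in each library of either group, Benjamini-Hochberg adjustment, threshold 0.05, two-sided, without covariates. All 4 ART-Normal fetuses of the labels entered, although the study lists 3. Muscle and liver were compared over 12 libraries with 4 group means. Log2 CPM for profiles used a prior count of 1. The SE of a change is its size divided by the square root of its F value. Depth was 12433300 to 43339598 counts per library, and Wilson intervals cover counting error only. Tables and plots used Python 3.11.15, pandas 2.3.3, NumPy 2.4.6, SciPy 1.17.1 and Matplotlib 3.10.9, and procedures were tested on simulated data. Both tissues came from the same animals, but the values printed for muscle over liver are from the fit without the fetus, and the fit with it is an alternative. Across genes, the departures of a fetus from its group's mean in the 2 tissues correlated at r = 0.36 in the controls (1 value, since 2 departures from a mean mirror each other) and 0.21, 0.04, 0.08 and 0.31 in ART-Normal 1 to 4.

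Named were all members, the other myosin heavy chains and up to 5 genes per list with the most CPM. Other list genes were named after their values were seen, for a low unadjusted p, a lack of overlap or a level below the filter. For likeness, the 3 nearest genes per member were taken and not all are printed. Alternatives were RLE scaling or library size alone, a likelihood ratio test, DESeq2 1.42.0 (Wald test), omitting the filter or asking for 10 counts in each library, a replicate block, and leaving out each replicate in turn.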

Additional observations from a re-analysis of the deposited data

Results flagged for a closer look

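Within the ART-Normal group, 5 of 19 sets of 4 values had a lowest or highest fetus far from the other 3 (Dixon's test), where chance alone gives about 1 in 20. MYH3 in muscle was 5871 CPM in ART-Normal 1, against 8334 to 8658 CPM in the others. The embryonic share in muscle was 49.6% in the same fetus, against 45.1% to 45.8%. MYH7 in liver was 1.03 CPM in ART-Normal 4 (32 counts), against 0.294 to 0.393 CPM. In the liver of ART-Normal 2, MYH1 was at 0.210 CPM (10 counts) and MYH4 at 0.0210 CPM (1 count), where the other ART-Normal livers had 0 counts of both. These sets share libraries, and a set of 3 zeros with any count is always far apart by this measure.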

How the results depend on the processing

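In muscle, 1 gene was called between ART-Normal and Control-AI, 120 by the likelihood ratio test, 106 by DESeq2 and 90 with the replicate block, and 0 to 1327 when a library was left out (1327 without Control-AI 4, 5 without Control-AI 2). Members called were 0, except 2 with the replicate block (MYH4 and MYH8) and 0 to 3 when a library was left out. In liver the count was 0 (948 at an unadjusted p under 0.05), 8 with library size alone, 89 by the likelihood ratio test, 56 by DESeq2, 6 with the replicate block and 0 to 830 when a library was left out, where 0 to 1 members were called (MYH3 without Control-AI 4, where it passed the filter only through Control-AI 2, the lone control and the library where it is high). Muscle over liver called 7 members in every setting but a filter of 10 counts in every library, which left 1 tested and 1 called. With the fetus as a replicate block it called all 7 too. In the main fit the members entered only through muscle, so a higher level there was fixed by the filter. The log2 change of MYH3 in muscle reversed with the replicate block (0.0893) and ran from -0.0962 to 0.0703 when a library was left out (above 0 without Control-AI 2 or ART-Normal 1), and that of MYH1 ran from -0.998 to 0.374 (above 0 without Control-AI 2). ART-Normal and Control-AI fetuses share only a number: deviations of same-numbered fetuses correlated at -0.03 and -0.18 in muscle and 0.02 and -0.13 in liver. Library size alone moved the median log2 fold change of all genes to 0.21 in liver. The causes were not tested.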

Other observations

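Outside the sarcomere, smooth muscle and vessel markers in the same muscle samples had 6 of 6 genes tested and 0 called, with a median log2 change of -0.28 (-0.18 without Control-AI 2). Calponin (CNN1), a protein of smooth muscle filaments, had 32.6 and 36.0 CPM for Control-AI 2 and 4 and 17.9 to 21.6 CPM for ART-Normal. Its log2 change was -0.82 (SE 0.15, adjusted p = 0.245 by edgeR's quasi-likelihood test), and -0.90 once Control-AI 2 was left out. The connective tissue proteoglycan lumican (LUM) had 1103 and 1133 CPM for the controls and 679 to 904 CPM for ART-Normal, a log2 change of -0.53 (SE 0.16, adjusted p = 0.372 by edgeR). The endothelial markers PECAM1 and CDH5 overlapped between the groups, at 173 to 196 CPM and 166 to 200 CPM over the 6 fetuses. Fat cell markers were low, with a sum of 4 genes of at most 7.54 CPM, and the 5 macrophage markers summed to 89.1 to 119 CPM in every muscle. Fetal globin (HBG) had 84.7 and 281 CPM for the controls and 176 to 570 CPM for ART-Normal.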
